A study of Mus musculus with 24 samples.

Results

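The comparison described here is the effect of adding oral live LGG to an anti-PD-1 antibody in wild-type mice, read as messenger RNA of CD11c+ dendritic cells from the mesenteric lymph nodes (MLN). It rests on 6 of the 24 libraries of the series, chosen by their treatment labels: 3 from WT mice given anti-PD-1 antibody plus live LGG, called the combination here, and 3 from WT mice given anti-PD-1 antibody alone. All groups were female C57BL/6 mice of 6 to 8 weeks with MC38 tumours, a colon carcinoma line, grown under the skin. Mice were pooled and randomised 7 to 10 days after the tumour injection at a mean tumour size of 100 mm3, and antibody (200 μg per mouse) and LGG were given 2 times a week for 2 to 3 weeks. The labels record no oral control for the mice without LGG, so LGG and the act of dosing by mouth cannot be told apart. Other groups used below are WT mice with live LGG and no recorded antibody dose, WT mice with IgG control antibody, and Myd88 knockout mice given the combination or anti-PD-1 antibody alone. The CD11c+ cells were taken with magnetic CD11c MicroBeads, so no further sort separated dendritic cells from other cells that carry CD11c. The labels do not say that replicates of a group came from separate animals, and p-values may then measure technical spread only.

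LGG, Lactobacillus rhamnosus GG, is a Gram-positive gut bacterium used as a probiotic. Dendritic cells read bacterial wall parts and nucleic acids through Toll-like receptors, most of which signal through the adaptor MyD88 to NF-kappaB, and through cytosolic sensors that induce interferon-beta. Activated dendritic cells are known to raise cytokines, costimulatory ligands and the homing receptor CCR7, and to stop taking up antigen. PD-1 is an inhibitory receptor on T cells that the antibody blocks, and dendritic cells carry its ligands.

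Between 25864666 and 33336776 reads were assigned to the listed genes in each of the 6 libraries. On the first principal component of the 12 wild-type libraries, which held 89.1% of the variance, the combination libraries lay at 66.5 to 67.4 and the anti-PD-1 libraries at -71.8 to -70. Replicate 1 stood somewhat apart on the second component, with 3.11% of the variance: it lay at -2.82 against -15.4 and -17.9 for the other combination libraries, and at 2.06 against -10.4 and -12.9 for the other anti-PD-1 libraries. Without combination replicate 1 the count of changed genes was 9147, and without anti-PD-1 replicate 1 it was 9166, against 9498 with all libraries.

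Adding LGG to anti-PD-1 changed most of the measured transcriptome. Of 12660 genes tested with limma on log2(value + 1), 9498 passed an adjusted p of 0.05, which is 75% of them: 4762 rose (37.6%) and 4736 fell (37.4%). With so high a background, direction and size tell more than the call. A change of over 2-fold was reached by 1827 genes that rose (14.4%) and 1547 that fell (12.2%). The 3 libraries of each group did not overlap in 4957 genes that were higher with the combination (39.2%) and 4898 that were lower (38.7%). The median change over all genes was 0.02 on the log2 scale. Scaling of the deposited counts assumes that most genes do not change, so this median and the balance of directions depend on that scaling. Genes that rose over 2-fold held 24% to 24.2% of the summed normalised counts in the combination libraries, against 6.57% to 6.67% in the anti-PD-1 libraries. Genes that fell over 2-fold held 5.09% to 5.18%, against 19.1% to 19.4%. Both sets were picked by their change in these same libraries, so only the size of the shares is informative, not their direction.

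Of the 12 genes named for the largest rises, 6 encode secreted proteins (Csf3, Hamp, Il1f6, Il12a, Il1b and Il12b). Csf3, which encodes the granulocyte growth factor G-CSF, had normalised counts of 8744, 7729 and 7622 with the combination and no read in any anti-PD-1 library. Its level was at least 9310-fold higher, taking a floor of 3 reads over the anti-PD-1 group. Il1f6, the IL-36 alpha gene, stood at 368.6, 346.1 and 347.7 with the combination and again at no read with anti-PD-1, at least 411-fold higher. Hamp, the gene of the iron hormone hepcidin, had 2513, 2085 and 2192 normalised counts with the combination, against 1.794, 3.214 and 4.437 with anti-PD-1 (log2 change 9.14 ± 0.63 SE, adjusted p = 4.03e-08). None of these genes overlapped between the groups, which was a condition for naming the largest rises and falls. Barx1, a homeobox gene, was 639-fold higher by reads (95% interval 114 to 25300, counting error only). Vnn3 of the vanin family, Itgb8, the beta subunit of a TGF-beta activating integrin, and Tm4sf1, a membrane protein gene, rose by 7.13, 6.99 and 6.89 on the log2 scale.

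The largest falls were led by a transporter and by lectins and receptors of resting phagocytes. Slc36a2, an amino acid transporter gene, had 0, 1.124 and 2.194 normalised counts with the combination, against 1172, 1184 and 1157 with anti-PD-1, 1080-fold lower by reads (95% interval 368 to 5220). Mrc1, the mannose receptor, had 60.92, 57.31 and 42.78 with the combination, against 9906, 10740 and 11700 with anti-PD-1 (log2 change -7.64 ± 0.13 SE, adjusted p = 1.1e-16). Both genes were low in every combination library, far below the lowest anti-PD-1 library. Further falls on the log2 scale were those of Tlr8 (-6.13), the lectin genes Clec4b1 (-6.66) and Clec4a3 (-5.29) and the gluconeogenic enzyme gene Fbp1 (-6.26). Ccr2, the receptor that brings monocytes out of the marrow, had 117.6, 132.6 and 107.5 with the combination, against 6589, 7211 and 7755 with anti-PD-1 (log2 change -5.9 ± 0.08 SE). Fibronectin (Fn1) fell by 5.63, Scel by 5.52 and Tifab by 5.4.

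**Figure D1:**
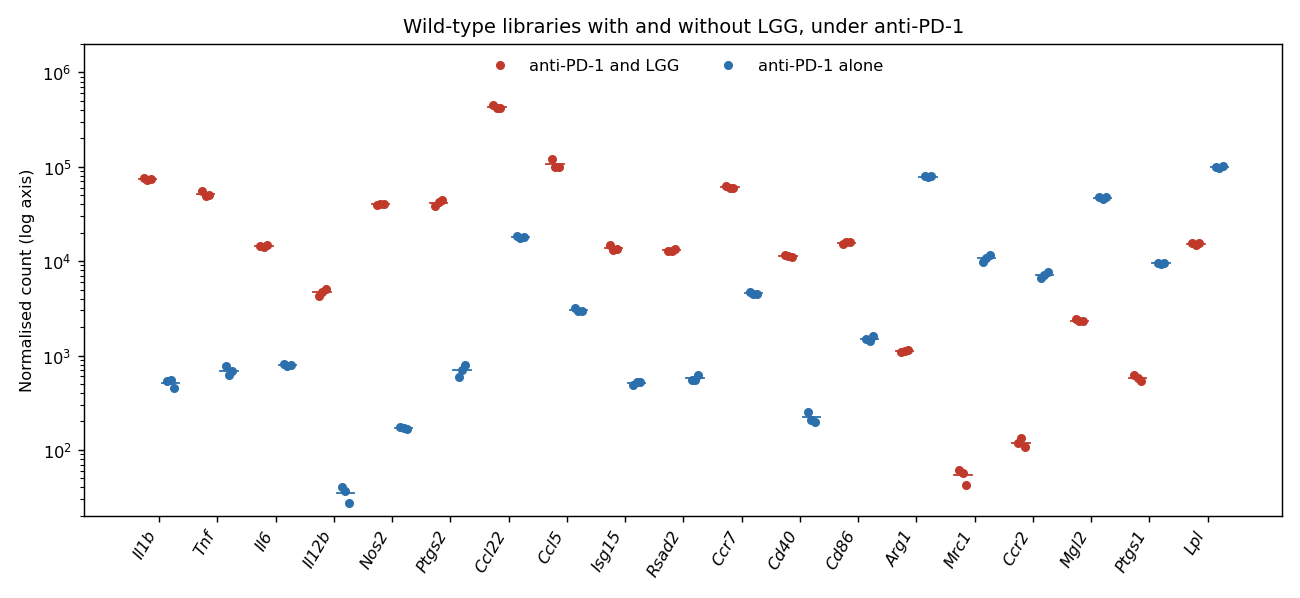
Normalised counts (log axis) of 19 genes in each wild-type library, with the 3 combination libraries in red on the left and the 3 anti-PD-1 libraries in blue on the right of each gene. The 2 groups are separate in every gene drawn: Il1b sits at 73030 to 75240 with the combination, against 454.4 to 553.6 with anti-PD-1, and Mrc1 at 42.78 to 60.92, against 9906 to 11700. The genes were picked from those named, some of which had to be separate. Over all genes, 39.2% were separate and higher with the combination and 38.7% separate and lower.

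Bulk libraries cannot tell fewer cells of a type from less RNA per cell, so markers of the cell types that a CD11c bead fraction may hold are given before the pathways. Defining dendritic cell markers moved both ways. Itgax, which encodes CD11c itself, had 9813, 10180 and 10340 normalised counts with the combination, against 25160, 25430 and 25150 with anti-PD-1 (log2 change -1.32 ± 0.04 SE). Zbtb46, a transcription factor of classical dendritic cells, had 1986, 2046 and 2046, against 390.3, 392.9 and 434 (2.32 ± 0.06). Flt3, the receptor for their growth factor, had 569.3, 631.6 and 675.7, against 85.24, 102 and 86.08 (2.77 ± 0.11). Itgax was thus lower, and Zbtb46 and Flt3 higher, in every combination library. Per kilobase of exon, the level of Itgax was at percentile 94.5 of measured genes in combination libraries and 98.1 in anti-PD-1 libraries. Flt3 was at percentile 42.9 with the combination and 14.7 with anti-PD-1, and Zbtb46 at 63.1 and 27.5. The labelled cell type therefore has high Itgax in both groups and low Flt3 with anti-PD-1.

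Of 19 macrophage and monocyte markers tested, 13 fell and 3 rose, with a median log2 change of -2.17. Their summed normalised counts were 131239 to 147019 in the combination libraries, against 353936 to 373450 in the anti-PD-1 libraries. The complement gene C1qa had 891.7, 795.6 and 797.4 with the combination, against 9554, 8465 and 9031 with anti-PD-1 (log2 change -3.44 ± 0.09 SE), lower in every combination library. On the log2 scale the scavenger receptor gene Cd163 fell by 3.7, the growth factor receptor gene Csf1r by 2.17 and the lysozyme gene Lyz2 by 2.36. Cd14, the lipopolysaccharide co-receptor, rose by 3.2, Ly6c2 by 1.44 and Adgre1 by 0.45, while Cd68 (0.02), Maf (-0.13) and Cx3cr1 (0.67) did not pass. How far the share of macrophages in the samples had a part in the falls was not tested.

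Subset markers did not move as blocks. For cDC1, the cross-presenting subset, 6 of 13 markers rose and 5 fell, beside 37.6% and 37.4% of all genes. Its chemokine receptor gene Xcr1 rose by 3.24 and its transcription factor Irf8 by 2.77, while the dead-cell receptor gene Clec9a fell by 2.83 and Naaa by 3.26. For cDC2, 5 of 13 rose and 7 fell, among them the lectin gene Mgl2 with 2435, 2300 and 2297 with the combination, against 47440, 46110 and 47470 with anti-PD-1 (log2 change -4.33 ± 0.05 SE). Clec10a fell by 3.93 and Clec4a2 by 4.65. For plasmacytoid dendritic cells, 7 of 9 tested markers rose and 1 fell, summing to 40792 to 46102 with the combination, against 11638 to 12711 with anti-PD-1. Bst2, also an interferon-induced gene, carried most of that sum (28800 to 33860, against 6611 to 7332), and Siglech, a defining marker, is not listed in the table.

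Markers of cells outside the dendritic lineage also moved. Of 21 T cell markers, 17 rose and 2 fell (1 without anti-PD-1 replicate 2, or without combination replicate 1 or 2), and their sum was 25882 to 26845 in the combination libraries, against 14392 to 14859 in the anti-PD-1 libraries. Thy1 had 6175, 5785 and 5680, against 2100, 2026 and 2141 (log2 change 1.49 ± 0.06 SE), and Icos, a costimulatory receptor, rose by 2.43. Of 13 NK and cytotoxic genes, 10 rose and 2 fell, with sums of 170556 to 196257 with the combination, against 30438 to 32036 with anti-PD-1. The chemokine Ccl5 made up most of the sum in the combination libraries. Ifng, the interferon-gamma gene, had 13680, 12780 and 12730, against 743.8, 675.8 and 731.3 (4.19 ± 0.06). The granule enzyme gene Gzma rose by 1.29 and the NK receptor gene Klrk1 by 3.01, while Klrb1c fell by 3.07. The part of T and NK cells in the risen genes below was not tested. Of the B cell markers 7 of 9 rose at low levels, with sums of 2546 to 2667 with the combination, against 1865 to 1997 with anti-PD-1. Neutrophil markers split into 6 that rose and 5 that fell among 13, near the shares over all genes (37.6% and 37.4%). Stromal markers summed to 4630 to 4784 with the combination, against 1384 to 1437 with anti-PD-1, most of it podoplanin (Pdpn, 3380 to 3517, against 171.4 to 214.8). Erythroid and platelet markers summed to 3853 to 4558, against 3012 to 3416.

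Cytokine genes rose as a group: 23 of 28 rose and 3 fell, with a median log2 change of 3.58, beside 0.02 over all genes, and 21 of the risen genes passed 2-fold. Il1b, the gene of the fever cytokine IL-1 beta (chr2:129364570-129371139, GRCm38), had 75240, 73030 and 74150 normalised counts with the combination, against 532.1, 553.6 and 454.4 with anti-PD-1. That is a 145-fold rise (log2 change 7.18 ± 0.08 SE, adjusted p = 3.66e-19). No library overlapped, which was a condition for naming Il1b among the largest rises. Tnf had 55930, 49480 and 50590 with the combination, against 768, 624.3 and 686.9 with anti-PD-1 (75.1-fold). Il6 had 14590, 14190 and 14850, against 807.5, 781.8 and 798.7 (18.2-fold). Tnf and Il6 lay above the highest anti-PD-1 library in each combination library, by margins far wider than the replicate spread. Both subunits of IL-12, the cytokine that drives type 1 T cell responses, rose as well: Il12b had 4244, 4747 and 5046, against 40.38, 36.96 and 27.51 (131-fold), and Il12a had 1051, 977.7 and 1010, against 4.486, 1.607 and 3.55 (log2 change 7.98 ± 0.29 SE).

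Regulatory members of the family rose beside the inflammatory ones. Il10, the main anti-inflammatory cytokine of myeloid cells, had 1470, 1272 and 1231 with the combination, against 12.56, 13.66 and 18.64 with anti-PD-1 (83.9-fold, log2 change 6.39 ± 0.14 SE). Il1rn, which encodes the natural blocker of the IL-1 receptor, had 40040, 38280 and 39900, against 2369, 2318 and 2478 (16.5-fold). In both genes every combination library lay above every anti-PD-1 library. The IL-23 subunit gene Il23a rose by 3.57, Il27 by 3.2, Il33 by 3.58, Il15 by 2.5, Il18 by 1.56, Inhba by 4.51 and the TNF-family ligand gene Tnfsf15 by 5.95. The 3 that fell were Il16 (-1.01), the macrophage growth factor gene Csf1 (-0.53) and the B cell factor gene Tnfsf13b (-1.38), and Tgfb1 (0.17) and Vegfa (-0.11) did not pass.

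Chemokine ligands followed, with 14 of 20 risen, 5 fallen and a median of 2.71. Ccl22, which draws CCR4-bearing T cells, averaged 430000 ± 19500 normalised counts with the combination, against 18080 ± 380 with anti-PD-1 (SD, n = 3 each; 23.8-fold). Per kilobase of exon it ranked 2 among all measured genes in the combination libraries and 158 in the anti-PD-1 libraries. Ccl5 had 120800, 99320 and 98480, against 3225, 2947 and 2978 (34.7-fold, log2 change 5.12 ± 0.12 SE), and combination replicate 1 was the highest library. The neutrophil attractants Cxcl1 (10090, 10240 and 9995 with the combination, against 212.6, 184 and 217.4 with anti-PD-1) and Cxcl3 (24220, 24300 and 24240, against 557.2, 590.6 and 528.9) rose by 5.62 ± 0.07 and 5.44 ± 0.06 on the log2 scale. Neither overlapped between the groups. Cxcl9, Cxcl10 and Cxcl11, which draw CXCR3-bearing T cells, rose by 3.28, 4.61 and 4.87. Those that fell included Ccl6 (-2.49), Ccl12 (-2.77) and Ccl24 (-1.68), and Ccl7 (-0.13) did not pass.

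The promoters of 4 strongly risen cytokine and chemokine genes are shown because they hold the letters of an NF-kappaB-type run, GGGA, any 4 bases and CC, searched on both strands and marked in capitals. Each is the 150 bases up to the RefSeq start of the gene (GRCm38.p6), written in the gene's own direction, with Cxcl1 at chr5:90891095-90891244 on the plus strand, Cxcl3 at chr5:90785951-90786100 on the plus strand, Ifnb1 at chr4:88522795-88522944 on the minus strand and Il19 at chr1:130940116-130940265 on the minus strand.
Cxcl1: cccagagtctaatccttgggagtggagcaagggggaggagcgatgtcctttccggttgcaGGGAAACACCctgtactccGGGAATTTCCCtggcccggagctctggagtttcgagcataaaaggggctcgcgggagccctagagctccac
Cxcl3: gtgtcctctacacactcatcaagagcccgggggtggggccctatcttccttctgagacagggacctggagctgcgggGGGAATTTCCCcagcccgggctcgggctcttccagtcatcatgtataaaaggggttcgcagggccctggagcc
Ifnb1: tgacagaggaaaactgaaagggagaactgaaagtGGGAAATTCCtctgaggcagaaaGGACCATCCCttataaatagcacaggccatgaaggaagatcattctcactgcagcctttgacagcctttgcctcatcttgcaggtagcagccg
Il19: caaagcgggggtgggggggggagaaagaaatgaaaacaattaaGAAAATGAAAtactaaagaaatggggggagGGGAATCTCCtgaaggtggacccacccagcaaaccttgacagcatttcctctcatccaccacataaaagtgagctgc
In Cxcl1 and Cxcl3 the run GGGAATTTCCC matches on both strands and may be a single site, and the first capitals of Il19 are an interferon-type match, described with the interferon genes. Over the 250 bases upstream of the start, the run occurred in 8 of 21 cytokine promoters (38.1%) and 6 of 13 chemokine promoters (46.2%) with an entry, beside 22.3% of 9990 tested genes and 25.1% of 1374 genes that rose over 2-fold. The match is to letters only. Il19 itself, an IL-10 family cytokine, rose by 4.79.

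In the NF-kappaB pathway the core signalling genes moved less than the inhibitors it induces. Among the 23 signalling genes, 13 were called higher, 5 lower and 5 neither, at a median log2 change of 0.75. Among the transcription factor subunits, Nfkb2 had 23340, 22240 and 22230 normalised counts with the combination, against 3846, 3699 and 3633 with anti-PD-1 (log2 change 2.6 ± 0.06 SE), and Relb rose by 2.09, Rel by 1.89, Nfkb1 by 1.6 and Rela by 1.12. Every library of the combination lay above every anti-PD-1 library for Nfkb2. Myd88 had 1919, 1723 and 1820, against 2027, 1852 and 1842, which overlap (-0.07 ± 0.06, adjusted p = 0.359). Of 23 feedback genes 22 rose and none fell, with a median of 1.37. Nfkbia, the inhibitor IkappaB-alpha, rose by 2.83, the deubiquitinase gene Tnfaip3 by 2.22, the RNase gene Zc3h12a by 2.47 and the adaptor gene Traf1 by 3.63, and Dusp2 (0.04) did not pass. Of 22 of these feedback genes with a promoter entry, 10 held the NF-kappaB-type run (45.5%).

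Type I interferon effectors were the most uniform list. All 38 tested rose, 34 of them over 2-fold, with a median of 2.14. Isg15, a ubiquitin-like antiviral protein (chr4:156199424-156200818, GRCm38), had 14650, 13280 and 13360 normalised counts with the combination, against 491.7, 529.5 and 524.5 with anti-PD-1 (26.6-fold, log2 change 4.74 ± 0.07 SE, adjusted p = 1.15e-17). Rsad2, which encodes viperin, had 12960, 12870 and 13440, against 551.8, 549.6 and 626.5 (4.51 ± 0.06), and Ifit1 rose by 4.5. No library overlapped in these. The smallest rises of the list were Samd9l (0.57) and Tor3a (0.67). Ifnb1, the interferon-beta gene, had 35.71, 37.08 and 50.46 with the combination, against 0, 0 and 0.8875 with anti-PD-1. That is a ratio of 143 by reads (95% interval 25.2 to 5700). Which interferon the effector genes answered to was not tested. Counts of near-identical copies such as Ifit3 and Ifit3b or the Oas1 genes may be split between them.

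Upstream of these genes Cgas and Tmem173 changed little, while the RNA sensor genes and Irf7 rose. Cgas, the cytosolic DNA sensor, had 467.4, 547.3 and 535.3 with the combination, against 612.8, 601.8 and 638.1 with anti-PD-1 (log2 change -0.26 ± 0.09 SE, adjusted p = 0.0123). Tmem173, which encodes its partner STING, had 5021, 5019 and 4926, against 5376, 5350 and 5624 (-0.13 ± 0.04, adjusted p = 0.0157). Both fell slightly, and with all 24 libraries in the fit neither passed (adjusted p = 0.536 for Cgas and 0.218 for Tmem173). The kinase gene Tbk1 rose by 0.49, the RNA sensor genes Ifih1 and Ddx58 by 1.62 and 1.07, and Mavs fell by 0.98. Irf7, the master factor of interferon-alpha genes, had 12020, 10780 and 9939, against 611, 609.9 and 613.2 (4.15 ± 0.07), and Ifi205, of a multigene DNA-binding family whose reads may be shared, rose by 6.84. Of 21 genes in this list 16 rose and 3 fell. Of 21 interferon-gamma response genes 17 rose and 2 fell, with a median of 1.24. Their GTPase gene Gbp5 rose by 3.6 and Igtp by 1.66, Gbp8 fell by 0.59, and Ciita, which turns on MHC class II, fell by 0.35.

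Promoters of an effector and a sensor gene are shown for the interferon-type letters GAAA, any 2 bases and GAAA, on either strand and in capitals, in the same 150-base window, with Isg15 at chr4:156200819-156200968 on the minus strand and Ifi205 at chr1:174031756-174031905 on the minus strand.
Isg15: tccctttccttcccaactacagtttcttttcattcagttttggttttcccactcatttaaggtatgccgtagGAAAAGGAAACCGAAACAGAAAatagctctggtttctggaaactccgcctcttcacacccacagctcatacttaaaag
Ifi205: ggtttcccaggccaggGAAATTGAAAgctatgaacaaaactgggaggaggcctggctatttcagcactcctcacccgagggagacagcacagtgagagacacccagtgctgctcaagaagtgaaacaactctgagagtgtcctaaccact
The Isg15 window holds 3 overlapping matches and the Ifi205 window 1. In the 250 bases upstream, this run occurred in 13 of 29 type I effector promoters (44.8%) and 9 of 12 interferon-gamma response promoters (75%), beside 2.88% of 9990 tested genes and 5.75% of genes that rose over 2-fold.

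Genes of dendritic cell maturation rose. Of 20 costimulatory and checkpoint genes 14 rose and 6 fell, with a median of 1.99. Cd40, the receptor for T cell help, had 11700, 11410 and 11050 normalised counts with the combination, against 253.9, 208.9 and 199.7 with anti-PD-1 (51.6-fold, log2 change 5.69 ± 0.1 SE). The CD28 ligand genes Cd80 and Cd86 rose 10.1-fold and 10.4-fold, Cd86 with 15080, 15910 and 15920, against 1501, 1427 and 1593. The groups were separate in all these genes. Of the 2 PD-1 ligand genes, Cd274 (PD-L1) had 31750, 34490 and 35100, against 8525, 9029 and 9293 (1.92 ± 0.06), while Pdcd1lg2 (PD-L2) had 5624, 5340 and 5262, against 4529, 4685 and 4797 (0.21 ± 0.05, adjusted p = 0.000885). Among inhibitory genes, Cd200 rose by 4.27 and its receptor gene Cd200r1 fell by 3.48, and Vsir, which encodes VISTA, fell by 2.03.

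Of 23 genes of the migratory state 21 rose and 2 fell (median 2.16). Ccr7, which guides dendritic cells into lymph nodes, had 61940, 60050 and 59420, against 4678, 4448 and 4514 (13.3-fold, log2 change 3.73 ± 0.05 SE). Fscn1, the actin bundler fascin, had 75330, 68720 and 66710, against 2836, 2671 and 2833 (4.66 ± 0.06). Neither overlapped. The fallen members were Anxa3 (-0.41) and Cd63 (-0.62).

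Antigen presentation genes divided by class. For MHC class I, 19 of 24 rose by a median of 0.79 and 5 fell, led by Wdfy4, a cross-presentation factor of cDC1 (-1.96). H2-K1 rose by 0.9, the peptide transporter gene Tap1 by 0.91 and the class I activator Nlrc5 by 1.16, and H2-Q6 and H2-Q7, near-identical genes whose reads may be shared, by 1.29 and 1.41. For MHC class II, 6 of 17 rose (3 with all 24 libraries in the fit) and 9 fell, with a median of -0.35. Of the class II chain genes, H2-Aa rose by 0.16, H2-Eb1 by 0.44 and H2-Eb2 by 1.76, and H2-Ab1 (0.12) and the invariant chain gene Cd74 (0.15) did not pass. Of the peptide loading genes H2-DMb2 rose by 0.32 and H2-DMb1 fell by 1.1, and H2-DMa also fell, with 4147, 3604 and 3632 with the combination, against 11500, 10660 and 10450 with anti-PD-1 (log2 change -1.52 ± 0.08 SE). The protease genes Ctss, Ctsl and Lgmn fell by 1.26, 1.54 and 1.85, and March1, the ligase that removes class II from the surface, fell by 1.87. H2-Oa and H2-Ob, which encode a brake on peptide loading, rose by 1.92 and 1.24.

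**Figure D2:**
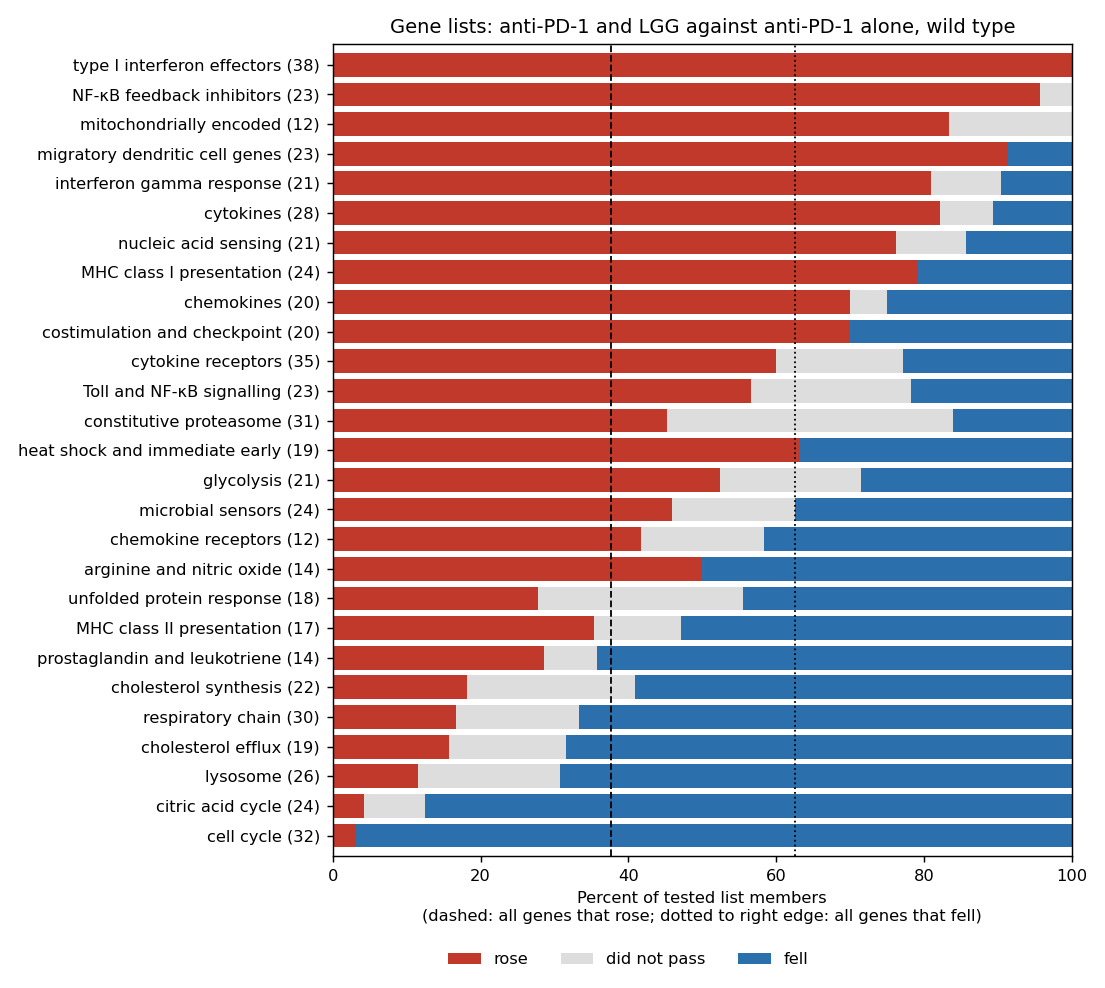
Share of tested genes (percent) in each of 27 gene lists that rose, did not pass or fell in combination libraries against anti-PD-1 libraries. The dashed line marks the 37.6% of all genes that rose and the dotted line the start of the 37.4% that fell: all 38 type I interferon effectors rose and 31 of 32 cell cycle genes fell.

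The genes that compete for arginine moved in opposite directions. Nos2, the inducible nitric oxide synthase (chr11:78920787-78960254, GRCm38), had 39240, 40580 and 39940 normalised counts with the combination, against 176.8, 168.7 and 165.1 with anti-PD-1 (233-fold, log2 change 7.87 ± 0.06 SE, adjusted p = 6.24e-21). Arg1, the arginase of alternatively activated macrophages (chr10:24915221-24927484, GRCm38), had 1082, 1113 and 1152, against 79390, 77120 and 79320 (70.4-fold lower, -6.14 ± 0.05, adjusted p = 8.18e-21). No library overlapped in either gene, which was a condition for naming both among the largest changes. The macrophage markers above fell in the same libraries. The mitochondrial arginase gene Arg2 rose by 2.82, the arginine transporter gene Slc7a2 by 1.09 and Gch1, which makes the cofactor of nitric oxide synthase, by 1.24. In polyamine synthesis downstream of arginase, Srm fell by 2.07 and Sms by 0.52, while Odc1 rose by 0.91.

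Prostaglandin genes showed a like exchange. Ptgs2, the inducible cyclooxygenase, had 38360, 42070 and 44000 with the combination, against 596.7, 707.1 and 792.5 with anti-PD-1 (59.6-fold). Ptges, the inducible prostaglandin E synthase, had 9955, 8979 and 8743, against 56.53, 48.21 and 65.67 (161-fold, log2 change 7.33 ± 0.12 SE). Ptgs1, the constitutive cyclooxygenase, had 617.6, 582.1 and 540.8, against 9671, 9379 and 9473 (-4.03 ± 0.06). All 3 genes were separate between the groups, the inducible pair higher and the constitutive one lower with the combination. For Ptges this was a condition for its naming among the largest rises. Synthases of other prostanoids fell: Tbxas1, for thromboxane, changed by -4.06 on the log2 scale, Ptgis, for prostacyclin, by -4.78 and Hpgds, for prostaglandin D, by -1.66. Of the 14 genes 4 rose and 9 fell.

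Genes of oxidative metabolism fell and those of glycolysis did not move as a block. Of 24 genes listed for pyruvate dehydrogenase and the citric acid cycle 21 fell and 1 rose, with a median of -0.7. Among the isocitrate dehydrogenase genes, Idh3a of the cycle itself fell by 1.86. Idh2 fell by 2.65, and Idh1, whose enzyme lies in the cytosol outside the cycle, by 2.47. The risen member, Acod1, diverts the cycle to itaconate and had 30460, 31140 and 31450 normalised counts with the combination, against 6342, 6350 and 6664 with anti-PD-1 (4.81-fold, log2 change 2.27 ± 0.04 SE). Of 30 nuclear-encoded respiratory chain genes 20 fell and 5 rose, with a median of -0.36, and of these 1 in each direction passed 2-fold (Uqcrh at 1.12 and Ndufs1 at -1.19). With all 24 libraries in the fit 12 of the chain genes fell and 1 rose. Of 21 glycolysis genes 11 rose and 6 fell, with a median of 0.14. The regulator gene Pfkfb3 rose by 2.11 and the lactate exporter gene Slc16a3 by 1.35, while Aldoc fell by 1.46 and Gapdh (0.09) and Pkm (0.03) did not pass.

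Lysosomal and lipid handling genes were mostly lower. Of 26 lysosome genes 18 fell, 13 of them over 2-fold, and 3 rose, with a median of -1.02. Lipa, the acid lipase, had 2027, 2149 and 2105 with the combination, against 14580, 15190 and 15740 with anti-PD-1 (log2 change -2.86 ± 0.04 SE), the cathepsin gene Ctsc fell by 2.51 and Tfeb, the factor that drives lysosome genes, by 2.41. Of 19 genes of lipid uptake and cholesterol efflux 13 fell and 3 rose. Lpl, the lipoprotein lipase, had 15580, 14670 and 15510, against 98760, 96700 and 102900 (-2.71 ± 0.06), and Pparg, a nuclear receptor for fatty acids, had 37.81, 47.2 and 48.26, against 801.2, 865.4 and 916.7 (-4.25 ± 0.22). All combination libraries were below all anti-PD-1 libraries in these genes. Of 22 cholesterol synthesis genes 13 fell and 4 rose, with Dhcr7 at -2.58 and Pmvk at 1.32. Without combination replicate 2 the risen numbered 2, and with all 24 libraries in the fit 1.

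Cell cycle genes fell almost without exception, 31 of 32, with a median of -1.4. The exception, Tk1, rose by 0.32. Their summed normalised counts were 37719 to 38812 in the combination libraries, against 81082 to 83776 in the anti-PD-1 libraries. Ccnb2, a mitotic cyclin, had 353.9, 329.3 and 338.9, against 1672, 1594 and 1605 (log2 change -2.25 ± 0.06 SE), and the mitotic kinesin gene Kif20a fell by 2.92. Mitotic genes led, and the DNA replication genes Mcm2 to Mcm7 fell by 0.66 to 1.22.

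Receptors for microbes and cytokines moved both ways. Of 24 microbial sensors 11 rose and 9 fell, with a median of 0.05. Over all genes 37.6% rose and 37.4% fell, so the split itself is not particular to these receptors. Tlr2, which reads lipoproteins of Gram-positive bacteria, had 2787, 2861 and 2927 normalised counts with the combination, against 885.6, 864.6 and 879.5 with anti-PD-1 (3.26-fold). Clec4e, the glycolipid receptor Mincle, had 21790, 22070 and 22640, against 384, 411.4 and 444.6 (53.6-fold), and its partner gene Clec4d rose by 2.38 and the wall fragment sensor gene Nod2 by 2.52. Tlr2 and Clec4e were higher in all combination libraries. Tlr4 fell by 2.07, Tlr7 by 1.5, Tlr13 by 2.09 and the glucan receptor gene Clec7a by 1.69, and Tlr9 (-0.33, adjusted p = 0.055) did not pass. Of 12 chemokine receptors 5 rose and 5 fell, and of 35 cytokine receptors 21 rose and 8 fell, with Il2ra up by 3.92 and Il18r1 by 3.48 and Il6ra down by 1.35.

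Of 18 unfolded protein response genes 5 rose and 8 fell, none of the risen over 2-fold, beside 37.6% and 37.4% of all genes. Of 31 proteasome subunits 14 rose and 5 fell, none over 2-fold, and with all 24 libraries in the fit 4 rose and 1 fell. Among 19 heat shock and early response genes 12 rose and 7 fell, 4 in each direction over 2-fold: the inducible chaperones Hspa1a and Hspa1b, near-identical copies, rose by 3.52 and 3.6, while Fos fell by 2.13 and Klf4 by 2.52.

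Mitochondrially encoded genes rose slightly, 10 of 12 with a median of 0.36 and none over 2-fold. Their sum was 668079 to 723456 in the combination libraries, against 518620 to 585679 in the anti-PD-1 libraries. In the WT libraries without the antibody, the sum was 590832 to 669377 with LGG, against 607465 to 620231 with IgG, so those groups overlapped. The effect of LGG was higher with anti-PD-1 than without it in 7 of the 12 genes, beside 1.73% of all genes. The largest of these differences was that of mt-Co2 (0.52 ± 0.07, adjusted p = 0.00334). With all 24 libraries in the fit none of the 12 passed between the combination and anti-PD-1, where mt-Co1 had an adjusted p of 0.458. None of them passed in the difference either.

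**Figure D3:**
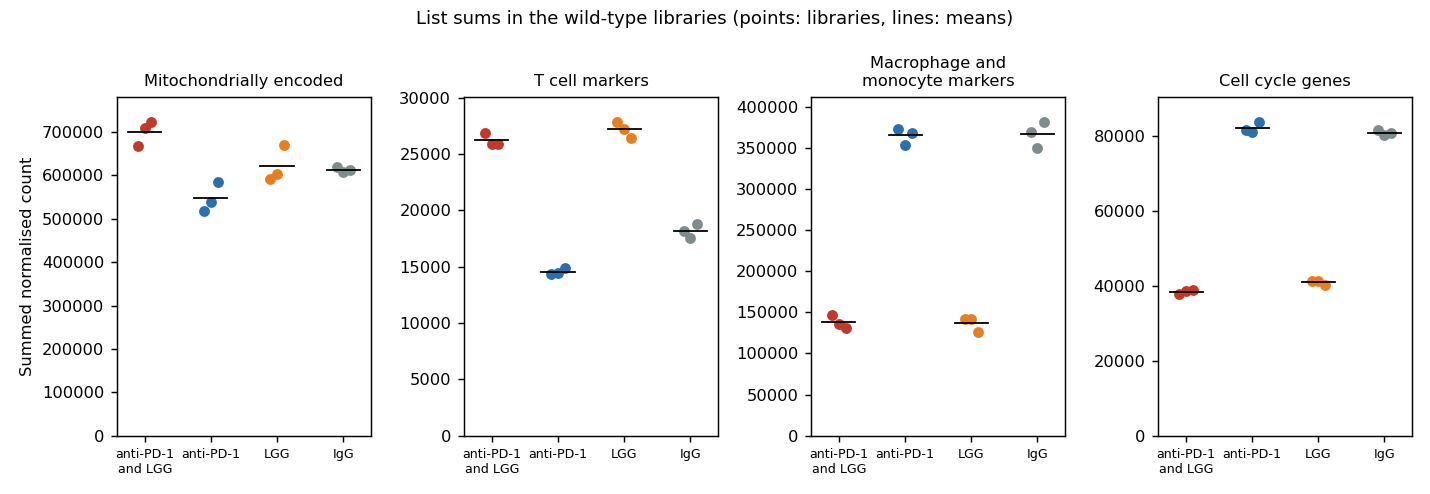
Summed normalised counts of mitochondrially encoded genes, T cell markers, macrophage and monocyte markers and cell cycle genes in the 12 wild-type libraries, 1 point a library, by treatment group. Macrophage markers sum to 131239 to 147019 with the combination, against 353936 to 373450 with anti-PD-1.

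To see whether the antibody altered the response to LGG, the effect of LGG with anti-PD-1 was set against the effect of LGG without it (WT with LGG against WT with IgG control antibody), which uses 6 other libraries. Since no antibody dose is recorded with LGG alone, that contrast also differs in the recorded antibody. LGG changed 9377 of the 12660 genes without anti-PD-1 (74.1%). Plotted gene by gene, the effect with the antibody followed the effect without it at a slope of 1.01 and a Pearson r of 0.968, where genes are no replicates of each other. Of 8402 genes called in both contrasts, 8364 changed in the same direction. The difference between the effects passed in 428 genes (3.38%), higher with anti-PD-1 in 219 (1.73%) and lower in 209 (1.65%), and exceeded 1 on the log2 scale in 20. That count depended on single libraries: it was 1580 without WT LGG replicate 3, which stood at -5.22 on the second principal component against 20.8 and 18.9 for the other LGG libraries, and between 106 and 265 without any other single library of the 12. With all 24 libraries in the fit it was 2, Nos2 and Naaa.

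**Figure D4:**
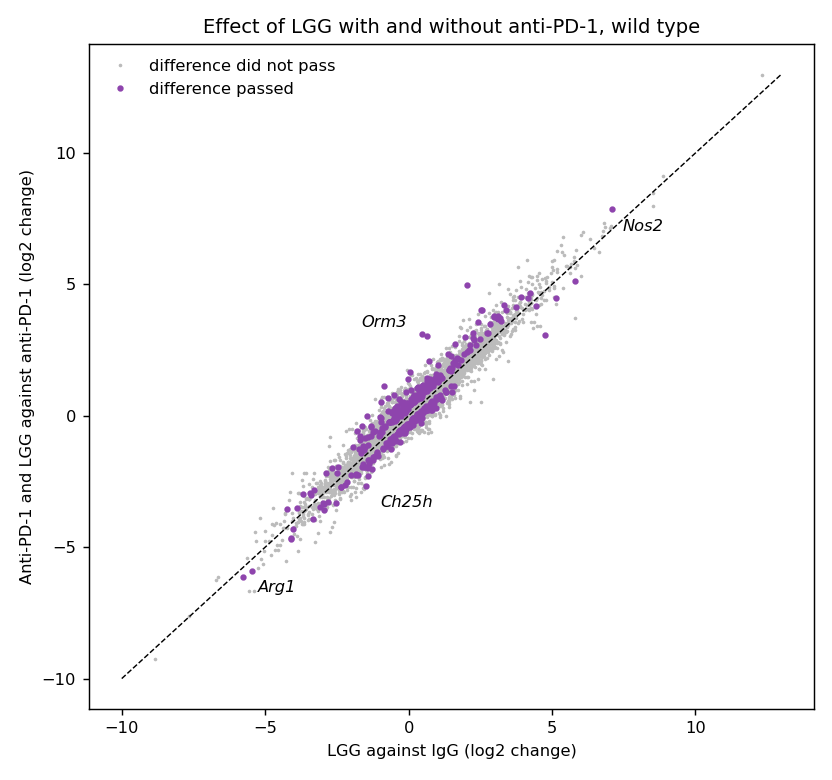
Log2 change of each gene for the combination against anti-PD-1 (vertical axis) and for LGG against IgG (horizontal axis) in wild-type libraries. Purple points are the 428 genes whose difference passed, and the dashed line marks equal effects. Points lie along that line with a slope of 1.01, and Nos2 at 7.87 with anti-PD-1, against 7.09 without, is above it.

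Among 60 genes followed in this difference, 17 passed, and 6 of these passed with any 1 library left out. The 60 included the genes with the largest differences that passed, so those had to pass. The 17 is therefore no measure of how often genes pass. Of the 6, Clic5, Adamts14, Csgalnact1 and Dio2 were picked in that way. Nos2 rose by 7.87 with anti-PD-1, against 7.09 without it, a difference of 0.78 ± 0.08 (adjusted p = 0.000458), and it still passed with all 24 libraries in the fit (adjusted p = 0.0299). Clic5, a chloride channel family gene, rose by 1.94 with anti-PD-1, against 1.03 without it (0.91 ± 0.12, adjusted p = 0.00139). Adamts14, a collagen-processing protease gene, rose by 3.02, against 1.97 (1.04 ± 0.16, adjusted p = 0.00388), and Csgalnact1, which starts chondroitin sulphate chains, by 4.04, against 2.54 (1.49 ± 0.28, adjusted p = 0.0135). Arg1 had a log2 change of -6.14 with anti-PD-1, against -5.77 without it (-0.36 ± 0.07, adjusted p = 0.0144). Dio2, the deiodinase that activates thyroid hormone, had a log2 change of 0.64 with anti-PD-1, against -0.34 without it (0.98 ± 0.19, adjusted p = 0.0135). Of these 6 genes, Nos2 alone passed in the fit of 24 libraries. The other gene that passed there, Naaa, a lipid amidase named for this count after its values were seen, had a log2 change of -3.26 with anti-PD-1, against -2.82 without it (-0.44 ± 0.06, adjusted p = 0.00218). The main cytokines did not pass in the difference: Il1b differed by 0.32 ± 0.11 (adjusted p = 0.117) and Tnf by -0.4 ± 0.11 (adjusted p = 0.0542, but 0.0182 with DESeq2, 0.00968 with array weights, and 0.014, 0.0469 and 0.0491 without WT LGG replicate 3, combination replicate 1 or anti-PD-1 replicate 2), while Il6 did, at -0.24 ± 0.06 (adjusted p = 0.0419), a call that held in 1 of 12 fits with a library left out. Of the 38 type I interferon effectors 9 passed in the difference, beside 3.38% of all genes. Among them was Rsad2 at 0.57 ± 0.08 (adjusted p = 0.0026), while Isg15 was at 0.03 ± 0.1.

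The same addition of LGG to anti-PD-1 in Myd88 knockout mice asks how far the change depends on that adaptor. Libraries labelled Myd88 knockout still carried Myd88 reads, 742.5 to 758 normalised counts with the combination and 884 to 1837 with anti-PD-1, against 1723 to 1919 in WT with the combination, so whole-gene counts do not show a deletion and the labels are used as given. The spread between the 3 anti-PD-1 libraries labelled Myd88 knockout was wide, with a biological coefficient of variation of 0.38, against 0.058 in WT anti-PD-1. In a fit of all 24 libraries (12749 genes), the combination changed 4673 genes in the libraries labelled Myd88 knockout (36.7%), of which 2510 rose (19.7%) and 2163 fell (17%). The effect differed between knockout and WT in 4804 genes (37.7%), higher in knockout in 2611 (20.5%) and lower in 2193 (17.2%). Without knockout anti-PD-1 replicate 2 that count was 7264. Gene by gene, the knockout effect followed the WT effect at a slope of 0.275, with a Pearson r of 0.497.

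Cytokine genes responded less in these knockout libraries. Il1b stood at 1253 to 1446 with the combination, against 464.8 to 640.2 with anti-PD-1, a log2 change of 1.24 ± 0.12 that differed from that in WT by -5.94 ± 0.17 (adjusted p = 6.83e-15). Il6 fell to 498.9 to 559.8 with the combination, against 1447 to 1831 with anti-PD-1 (-1.6 ± 0.08), where WT rose. Il10 had 1.91 to 8.735 with the combination, against 2.127 to 6.894 (0.03). Il1b was separate between the groups and higher with the combination, Il6 separate and lower, and Il10 overlapped. Of the 28 cytokines 15 rose in knockout, and the effect was lower than in WT in 19. Csf3 had at most 5.856 normalised counts in any of these knockout libraries.

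Other responses persisted in part. Nos2 rose to 1522 to 1639 with the combination, against 61.68 to 72.06 with anti-PD-1 (log2 change 4.53 ± 0.08, differing from WT by -3.34 ± 0.12). Of the 38 type I interferon effectors 34 rose in knockout and the effect was lower than in WT in 24. Rsad2 had 3047 to 3350, against 253.9 to 334.9 (3.45 ± 0.13). Clec4e had 11960 to 12840, against 570.4 to 684.9, a log2 change of 4.34. Acod1 rose more than in WT, at 32620 to 34370 with the combination, against 2553 to 3065 (log2 change 3.54, higher by 1.27, adjusted p = 3.95e-09). For Tlr2 the knockout change of 1.51 did not pass as different from WT (-0.2, adjusted p = 0.0746), but it did with edgeR (0.0407), DESeq2 (0.0119) and array weights (0.00934). Of the 32 cell cycle genes 29 fell in knockout. Arg1 fell by 1.35 and Mrc1 by 1.2, against 6.14 and 7.64 in WT, and Itgax, which fell in WT, had 51200 to 53700 with the combination in knockout, against 33060 to 37830 with anti-PD-1 (0.58).

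**Figure D5:**
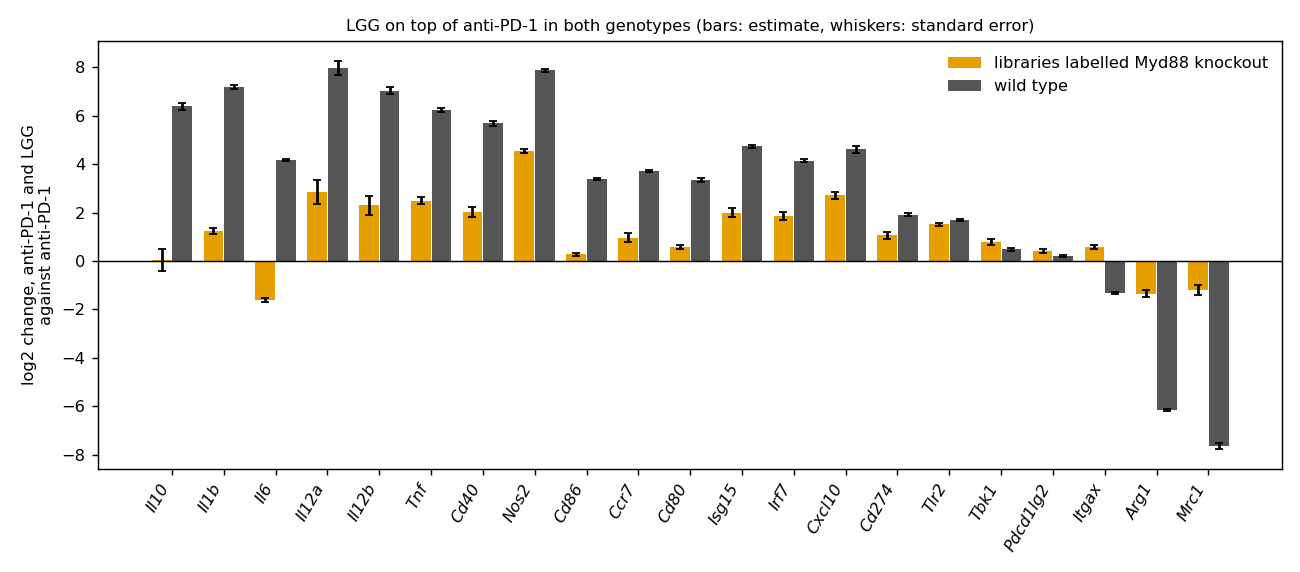
Log2 change for the combination against anti-PD-1 in libraries labelled Myd88 knockout and in WT libraries, with whiskers for the standard error. Wild-type values come from the fit of 12 libraries and knockout values from the fit of 24; Il1b changes by 1.24 in knockout and 7.18 in WT, and Mrc1 by -1.2 and -7.64.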

How the data were processed

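RNA sequencing was done on 24 libraries of CD11c+ cells, and the comparison uses the WT libraries by their labels. The authors deposited 1 table of signal, normalised counts per gene for 12767 genes: alignment to mm10 used STAR 2.4.0, counting HTSeq 0.6.1 and scaling DESeq2 (no version given), per the submitters' processing notes. Values in a library are multiples of 1 step, and division by it gave whole reads within 0.001 for all values used in the count tests. Such scaling assumes that most genes do not change between libraries. Library strandness is not given in the sources used here, so reads of overlapping and antisense genes cannot be told apart. The lowest listed mean is 9.574, and genes below it are not analysed here. Coordinates come from an annotation of GRCm38, matched by identifier for 12765 genes, and promoters from RefSeq (GRCm38.p6).

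From the deposited values, log2(value + 1) was fitted with limma 3.58.1 in R 4.3.3 (trend and robust empirical Bayes, two-sided) over the 12 wild-type libraries with 1 mean per group, for genes with a mean of at least 10. Differences between genotypes used all 24 libraries. The Benjamini-Hochberg method adjusted p-values over all genes, and a gene rose or fell when its adjusted p was below 0.05. Errors are standard errors after log2 changes and standard deviations after means. On simulated counts of 12657 genes for this comparison, 100 genes were changed by 1 on the log2 scale and 100 by 0.5, in either direction. Of these 94% and 76% were recovered, and 3.95% of calls were false. In the data 75% of genes passed, so the simulation does not give the false call rate for so wide a change. Intervals of reads are exact 95% limits for counting error only. The floor is a set value of 3 reads over a group and carries no interval.

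Named genes are the 12 that rose most and the 12 that fell most (mean of at least 100 in the higher group, groups not overlapping, predicted genes and receptor segments passed over), the 4 members of each list with the smallest p, and a set of genes the design asks about. Other list members were named after their values were seen. For the difference with and without anti-PD-1, genes with the largest differences that passed were added (mean of at least 100 in the higher group). The members and lists were chosen with earlier results of these data known. Alternatives were count tests on whole reads (DESeq2 1.42.0, edgeR 4.0.16), a pseudocount of 8, other filters, TMM scaling, array weights, a replicate block, other sets of libraries in the fit and each library left out. Knockout LGG replicate 3 entered no count test, because its step lies near 1 and was not accepted as recovered reads in a check of the unit. A few genes that meet the naming rule are not reported here.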

Additional observations from a re-analysis of the deposited data

Results flagged for a closer look

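In these results the effect of LGG differed between groups of libraries by a test of the difference itself. With anti-PD-1 minus without it, in wild type, the difference in log2 change was 2.63 for Orm3, an acute phase protein gene, 1.51 for Cfb (complement factor B), 1.49 for Csgalnact1, 1.37 for Il13, 1.04 for Adamts14, 0.99 for Hspg2 (perlecan), 0.98 for Dio2, 0.97 for Zfp507, 0.92 for Arsb and 0.91 for Clic5. It was -1.17 for Ch25h, which makes 25-hydroxycholesterol. These genes were picked because they had the largest differences that passed. With 1 library left out, the calls of Csgalnact1, Adamts14, Dio2 and Clic5 held in all 12 fits. The call of Ch25h held in 5 of 12 and that of Orm3 in 4. Those of Cfb, Hspg2 and Arsb held in 2, and those of Il13 and Zfp507 in 1. Orm3 averaged 111.2 ± 31.0 normalised counts with the combination, against 12.88 ± 6.4 with anti-PD-1 (SD, n = 3 each), a log2 change of 3.11, against 0.48 for LGG without the antibody. Ch25h averaged 31.62 ± 3.05 with the combination, against 206.2 ± 32.4 with anti-PD-1, a log2 change of -2.66, against -1.49 without the antibody. Among the genes the design asks about, the difference was 0.42 for Irf7, 0.78 for Nos2, -0.24 for Il6 and -0.36 for Arg1. The call of Irf7 held in 2 of 12 fits with a library left out, that of Il6 in 1, and those of Nos2 and Arg1 in all. For Rsad2 the difference was 0.57 and for Naaa -0.44. Of all these genes, only Nos2 and Naaa passed with all 24 libraries in the fit.

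Between the genotypes, as the effect in libraries labelled Myd88 knockout minus that in WT, most of the genes the design asks about differed. For cytokines the difference was -6.36 for Il10, -5.94 for Il1b, -5.79 for Il6, -5.12 for Il12a, -4.72 for Il12b, -3.73 for Tnf and -3.07 for Il23a. For interferon genes it was -2.74 for Isg15, -2.3 for Irf7, -1.99 for Ifnb1, -3.0 for Cxcl9 and -1.91 for Cxcl10. The call of Ifnb1 was lost with edgeR (adjusted p = 0.0809), DESeq2 (0.0646) and in 4 of 12 fits with a library left out: anti-PD-1 replicate 1 or 2 (0.0507 and 0.0521), combination replicate 3 (0.0541) or knockout anti-PD-1 replicate 3 (0.0635). Maturation genes differed by -3.67 for Cd40, -3.09 for Cd86, -2.77 for Ccr7, -2.76 for Cd80 and -0.86 for Cd274. Nos2 differed by -3.34, Flt3 by -1.68, Zbtb46 by -1.49 and Myd88 by -0.76. The call of Myd88 (adjusted p = 0.0291) held in 4 of 12 fits with a library left out, where its difference lay between -1.06 and -0.53 and its adjusted p reached 0.083 without knockout anti-PD-1 replicate 3. In 3 genes that fell in WT the difference was positive, at 6.44 for Mrc1, 4.79 for Arg1 and 1.9 for Itgax. Acod1, which rose in both genotypes, differed by 1.27.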

How the results depend on the processing

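The count of genes changed by the combination against anti-PD-1 was 9498, and lay between 7247 (all 24 libraries in the fit, 3537 higher and 3710 lower) and 10058 (array weights) over the alternatives. Leaving out 1 of the 6 libraries gave 9000 to 9166. Of 178 genes named, 171 kept their direction and call in every alternative. Most of the 178 were named for a large change or a small p, so this is no measure of how stable other genes are. Further list members given above were not followed gene by gene. The 7 of the 178 that did not were Tlr9, Cgas, Tmem173, mt-Nd4, mt-Co1, mt-Co2 and mt-Co3. TMM scaling gave 4916 higher and 4594 lower. Among the lists, counts moved by over 1.5 times mainly in the fit of 24 libraries, where for instance 3 unfolded protein response genes rose, against 5, and 3 glycolysis genes fell, against 6.

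The count of genes whose LGG effect differed with and without anti-PD-1 was the least stable. It was 428 (219 higher, 209 lower), 447 with edgeR, 833 with DESeq2 (388 higher, 445 lower), 2178 with array weights (1061 higher, 1117 lower) and 2 with all 24 libraries (1 higher, 1 lower). Leaving out a library gave 106 to 1580 (63 to 789 higher, 41 to 791 lower), with 1580 without WT LGG replicate 3. The cause was not tested. The fit of 24 libraries includes the knockout groups with the widest spread.

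The genotype difference, 4804 genes, was 8614 with array weights (4590 higher, 4024 lower), 4216 to 7264 with a library left out (2318 to 3763 higher, 1898 to 3501 lower), the last without knockout anti-PD-1 replicate 2, and 7234 (3370 lower) without 3 knockout libraries that stand apart, a setting chosen after seeing the data.

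Deviations of same-numbered libraries correlated at 0.187, 0.026 and 0.0904, and those of differently numbered ones at -0.15 to 0.0713. These values are too few to tell whether replicate numbers pair the samples, and the main fit used no pairing. With a replicate block the counts were 9701, 708 (356 higher, 352 lower) and 4575. Under that block the differences with and without anti-PD-1 of Il1b (adjusted p = 0.0414) and Tnf (0.00953) passed. Among the genes named, none that passed in a comparison changed sign under an alternative run for it. Of the genes called between the combination and anti-PD-1, 48.6% (a mean of at least 50) to 51.7% (TMM scaling) were higher, so which direction held more genes depended on the setting (4725 higher and 4826 lower with edgeR). Genes near the lowest listed level rest on few reads, and their changes are the least precise.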
